A study of Mus musculus with 7 samples.

Results

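Cluster 3 is 1 of 6 clusters of cultured neural stem and progenitor cells (NSPCs) from the adult mouse dentate gyrus, the part of the hippocampus that makes neurons throughout life. Its members are the cells whose column name carries the authors' cluster number 3, which gave 1910 of 14912 cells (12.8%). The cells came from 3 primary cultures of C57Bl6J mice aged 6 to 9 weeks, 2 female and 1 male, at passages 6 to 15, and were mixed in equal numbers into 1 droplet library. All cultures, including those sequenced in bulk, were kept on laminin in medium with EGF and FGF2 (20 ng/ml each), so every cell described here was grown under mitogens. The study also sequenced 4 cultures (2 female, 2 male, mice of 6 to 8 weeks) and the dentate gyrus of 2 mice (a female and a male of 7 to 9 weeks) in bulk. No label ties a cell to its culture, so cells of cluster 3 are not replicates and the single-cell values below are descriptions of 1 library without a test.

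Cells that are about to copy their genome first license it. In G1 the origin recognition complex (Orc1 to Orc6) marks replication origins, and Cdc6 and Cdt1 use it to load the ring-shaped helicase made of Mcm2 to Mcm7. Once S phase starts, geminin (Gmnn) binds Cdt1, and the ubiquitin ligase that reads its substrates through Dtl destroys Cdt1, so that no origin is licensed again in the same cycle. E2F transcription factors, released from the retinoblastoma proteins at the entry into S phase, switch on many of these genes. In the adult dentate gyrus most stem cells are quiescent, whereas NSPCs kept with mitogens divide.

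The library gave cluster 3 a total of 8077775 UMIs (unique molecular identifiers, each standing for 1 captured RNA molecule). The median cell of cluster 3 held 4127 UMIs and 1744 genes, against 3749 UMIs and 1586 genes in cluster 0 and 4731 UMIs and 1955.5 genes in cluster 2, with 10.6%, 11.6% and 9.77% mitochondrial UMIs. Across the 6 clusters the median UMI count ran from 3431 to 5270.5, no cell had more than 2499 genes, and 0 cell barcodes occurred in more than 1 column. Doublets were not looked for here. Levels are given as UMIs per 1000000 UMIs of the cluster (UPM), with 95% exact intervals that cover counting error only, and a gene was called higher or lower when its levels differed by 1.5 times or more and the higher level was at least 50. The clusters were built from the same genes, so such a call describes the cluster and supports nothing.

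The 5 genes given as markers of cluster 3 were all higher in it than in all other cells together, and 3 of them had nearly the same level in cluster 2. Mcm3, a helicase subunit, reached 186 UPM in cluster 3 (95% interval 176 to 195), 175 in cluster 2, and 31.5, 46.0, 57.5 and 23.2 in clusters 0, 1, 4 and 5. Mcm6, another subunit of that ring, stood at 125 in cluster 3, 145 in cluster 2 and between 17.7 and 43.8 in the other clusters. Slbp, which binds the stem-loop of histone mRNAs, was at 161 in cluster 3, 165 in cluster 2 and between 48.1 and 55.1 elsewhere. In these 3 genes clusters 2 and 3 stood together, well above the other 4. Hells, a chromatin remodelling helicase, was highest in cluster 3 at 1.31 times the next cluster, with 96.9 against 74.3 in cluster 2 and 10.7 to 21.8 in the rest. Nasp, a histone chaperone, was at 282 in cluster 3, below cluster 2 (364) and not far above clusters 1 and 4 (232 and 224). Its ratio to all other cells was 1.30, so this marker did not reach 1.5 times. In GRCm38 (GENCODE) these genes lie at chr1:20802968-20820312 (Mcm3), chr1:128331590-128359664 (Mcm6), chr5:33634952-33652574 (Slbp), chr19:38930915-38971051 (Hells) and chr4:116601052-116627941 (Nasp).

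**Figure D1:**
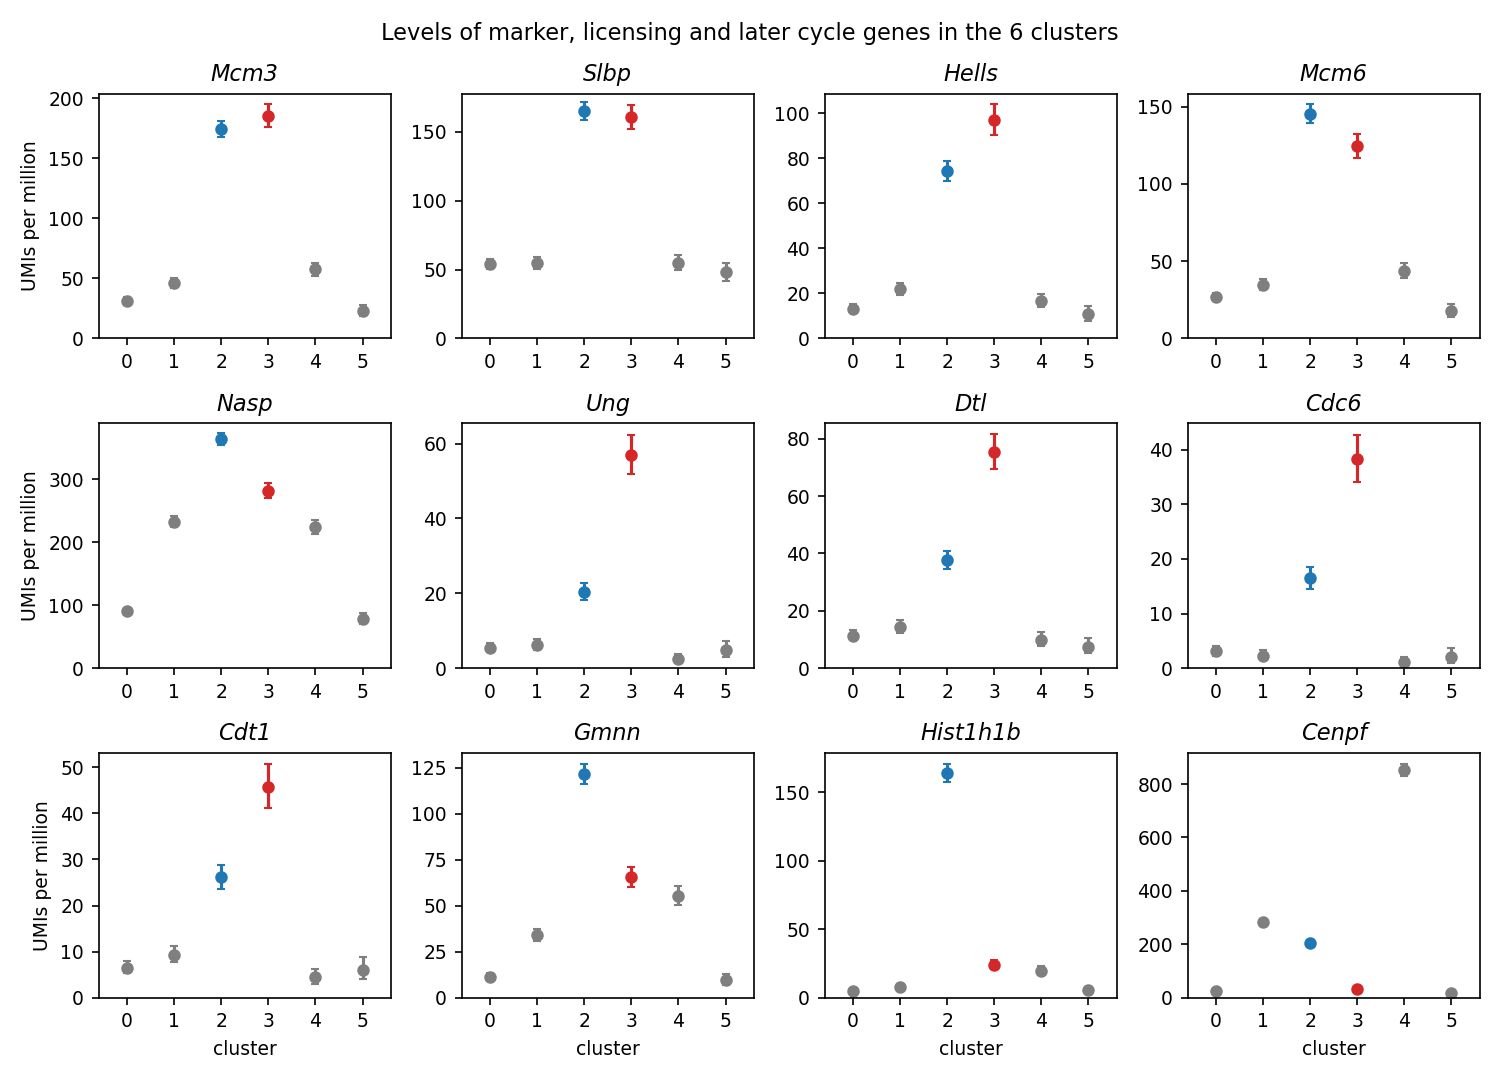
Level of 12 genes in each of the 6 clusters, in UPM on a linear axis that starts at 0 in each panel. Points are the pooled level of a cluster and bars its 95% exact Poisson interval (counting error only), with cluster 3 in red and cluster 2 in blue. Mcm3, Slbp and Mcm6 were high in clusters 2 and 3 alike, Ung, Dtl, Cdc6 and Cdt1 peaked in cluster 3, Gmnn and Hist1h1b peaked in cluster 2, and Cenpf peaked in cluster 4.

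Against all other cells together, 33 of the 2945 genes at the minimum level (1.12%) were higher in cluster 3 and 67 (2.28%) were lower. These counts were 71 and 139 at a minimum of 20 UPM, 0 and 13 at 200, and 18 and 32 by mean log values. The median log2 ratio over all these genes was 0.00. At the top stood Ung, the glycosylase that removes uracil from DNA, with 56.9 UPM in cluster 3 and 9.31 in the other cells, a ratio of 6.11 (5.38 to 6.95). Dtl, the substrate reader of the ligase that degrades Cdt1, followed with 75.4 against 18.9, a ratio of 3.98 (3.60 to 4.40). Ung spans chr5:114130386-114139323 and Dtl chr1:191537356-191575544 (GRCm38). Next came Hells (ratio 2.97, 2.72 to 3.23), Casp8ap2 (2.39, 2.19 to 2.60), whose protein takes part in processing histone mRNA, and Mcm3 (2.37, 2.24 to 2.52). The 20 leading genes also held Mcm4, Mcm5 and Mcm6, both large CAF-1 subunits that place histones on new DNA (Chaf1a, 2.24, and Chaf1b, 2.02), the clamp loader subunit Rfc3 (1.76), the single-strand binding subunit Rpa2 (1.74) and cyclin E1 (Ccne1, 2.09). The others were Fam111a (2.29), Cdca7 (2.25), which acts with Hells, Zmynd19 (2.20), the recombination factor Fignl1 (1.99), the chromatin factor Atad2 (1.98), Uhrf1 (1.89), which brings the maintenance DNA methyltransferase to replicated DNA, and Slbp (1.88).

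Promoters of several of these genes carry letters of the E2F site, and they are shown because these genes are high in the same cells. RefSeq promoters (GRCm38.p6) of 250 bases before to 50 after the start were searched on both strands for TTTGGCGC, TTTCCCGC, TTTCGCGC and TTTGCCGC. Of the 20 leading genes 18 had a promoter (Mcm4 and Atad2 did not), and 9 of their 20 promoters (45%) held at least 1 match, against 2.26% of all 32851 promoters. Among the licensing genes, 15 of 17 had a promoter (Mcm4 and Gmnn did not), and 9 of 19 promoters (47.4%) held a match. The 150 bases before the start are printed 5′ to 3′ for 4 leading genes and 2 licensing genes, with matches in capitals, and in Mcm6 the first 2 of its 3 matches overlap.
Dtl promoter, chr1:191575545-191575694, minus strand: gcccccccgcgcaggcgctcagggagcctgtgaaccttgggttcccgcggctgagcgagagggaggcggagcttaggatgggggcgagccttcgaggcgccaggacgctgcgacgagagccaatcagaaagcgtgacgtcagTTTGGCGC
Hells promoter, chr19:38930840-38930989, plus strand: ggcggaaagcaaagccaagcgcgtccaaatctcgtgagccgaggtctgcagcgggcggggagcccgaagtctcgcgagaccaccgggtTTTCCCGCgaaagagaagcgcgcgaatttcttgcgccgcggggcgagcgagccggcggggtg
Cdca7 promoter, chr2:72476069-72476218, plus strand: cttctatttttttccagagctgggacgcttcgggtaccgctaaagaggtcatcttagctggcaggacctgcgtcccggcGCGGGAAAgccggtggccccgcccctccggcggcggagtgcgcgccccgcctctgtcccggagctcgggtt
Mcm6 promoter, chr1:128359706-128359855, minus strand: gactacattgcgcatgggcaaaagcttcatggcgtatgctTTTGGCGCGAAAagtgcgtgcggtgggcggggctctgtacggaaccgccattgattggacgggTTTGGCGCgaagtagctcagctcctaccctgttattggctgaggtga
Orc1 promoter, chr4:108579304-108579453, plus strand: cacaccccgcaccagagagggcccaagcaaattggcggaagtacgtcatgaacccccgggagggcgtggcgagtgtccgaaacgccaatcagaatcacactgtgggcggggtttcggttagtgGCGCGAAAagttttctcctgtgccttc
Cdc6 promoter, chr11:98908001-98908150, plus strand: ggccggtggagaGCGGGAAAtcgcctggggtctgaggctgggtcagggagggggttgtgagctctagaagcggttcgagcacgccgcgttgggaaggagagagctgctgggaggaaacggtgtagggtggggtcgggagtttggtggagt
The promoter of Ung held 0 matches in this window. Those of Chaf1a, Chaf1b, Ccne1, Slbp, Rpa2, Fam111a, Zmynd19 and Fignl1 held 0 as well, and every printed promoter is one with a match. Of the 10 genes lowest in cluster 3, described below, 0 promoters held an E2F match, whereas 7 of 10 held TTTGAA or TTCGAA, the letters of the element called CHR that occurs in promoters of mitotic genes. That element was in 2 of the 20 promoters of leading genes and in 19.2% of all promoters. The letters CCAAT, searched in the same way, were in 70% of leading, 63.2% of licensing and 90% of lowest promoters. Of all promoters 37.4% held them, so all promoters are not a matched background for these genes. A match in these letters describes the window and not a bound site. The starts used here are those of RefSeq, and GENCODE places some elsewhere. Cdc6 starts at chr11:98907801 in GENCODE, so its printed stretch and match lie inside that gene. The printed stretches of Hells, Cdca7 and Orc1 run partly into their GENCODE genes, with the matches of Hells and Orc1 inside.

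Of the 9 licensing genes at the minimum level against cluster 2, 0 were higher in cluster 3 and 1, Gmnn, was lower. Of all genes 0.297% were higher and 4.49% lower, so with 9 genes these counts say little about licensing. Below that minimum, Cdc6, Cdt1 and Orc1 had higher levels in cluster 3 than in cluster 2. Cdc6, the loading ATPase, was at 38.3 UPM in cluster 3 (309 UMIs), 16.5 in cluster 2, 3.11 in cluster 0 and between 1.08 and 2.30 in the remaining clusters. Cdt1, its partner, was at 45.8 in cluster 3, 26.1 in cluster 2, 6.55 in cluster 0 and 4.44 to 9.38 in the remaining clusters. Orc1, the ATPase of the origin complex that is made anew in each cycle, was at 7.18 in cluster 3 against 4.52 in cluster 2 and 1.12 in cluster 0. Over cluster 2 these were ratios of 2.33 for Cdc6, 1.75 for Cdt1 and 1.59 for Orc1, and over all other cells of 6.01 (5.14 to 7.02), 3.69 (3.24 to 4.19) and 2.89 (2.09 to 3.96). All 3 stayed under the minimum of 50 and are not among the counted genes.

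The helicase subunits had levels within 0.856 to 1.07 times those of cluster 2, and geminin was lower in cluster 3. Ratios of cluster 3 to cluster 2 were 1.07 for Mcm4, 1.06 for Mcm3 and Mcm5, 0.874 for Mcm7, 0.865 for Mcm2 and 0.856 for Mcm6, and all 6 were higher than in cluster 0, by 3.34 times (Mcm2) to 5.90 times (Mcm3). Mcm10, which acts when the helicase is switched on, was at 23.6 in cluster 3 and 28.8 in cluster 2. Geminin mRNA was at 65.4 UPM in cluster 3, 121 in cluster 2, 55.3 in cluster 4 and 11.6 in cluster 0, a ratio of 0.539 to cluster 2 and of 5.65 to cluster 0. Of the other origin subunits, Orc6 followed the helicase (111 against 131 in cluster 2 and 43.5 in cluster 0) and Orc2 did so weakly (48.7, 53.2 and 28.1). Orc3, Orc4 and Orc5 had ratios of 0.963, 0.973 and 0.983 to all other cells. Mcmbp, which binds the Mcm complex, was at 49.8 in cluster 3 and 49.6 in cluster 2.

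Summed over the list, licensing genes came to 1130 UPM in cluster 3, 1204 in cluster 2 and 329 in cluster 0. The ratio of cluster 3 was 1.79 (1.75 to 1.84) to all other cells, 3.44 (3.32 to 3.56) to cluster 0 and 0.938 (0.915 to 0.962) to cluster 2. Against all other cells 14 of 17 members had a ratio above 1, 8 reached the minimum level and 7 of these were higher by 1.5 times, where 1.12% of all genes were. With clusters made anew from the same cells, the log2 ratio of the sum to cluster 2 was 0.13 in place of -0.09, so its direction against cluster 2 depends on the clustering.

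Per cell, clusters 2 and 3 had similar shares for the helicase genes. With each cell thinned to 2000 UMIs, which left out 0 cells, 73.9% of cluster 3 cells (71.8 to 75.8, exact binomial) had a UMI of at least 1 of Mcm2 to Mcm7, against 73.8% in cluster 2, 24.1% in cluster 0 and 40.3% of all other cells. At least 2 of the 6 genes were seen in 35.0% of cluster 3 cells, 36.8% in cluster 2 and 3.44% in cluster 0. Ung was found in 10.8% of thinned cluster 3 cells (9.48 to 12.3), 4.23% in cluster 2, 0.994% in cluster 0 and 0.350% in cluster 4. Unthinned, those shares were 21.2%, 8.96%, 1.96% and 1.26%, with median depths of 4127, 4731, 3749 and 5270.5 UMIs, so the deepest cluster had the lowest share. A UMI of Ung or Dtl was present in 23.5% of thinned cluster 3 cells (448 cells) and 10.8% of cluster 2 cells.

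**Figure D2:**
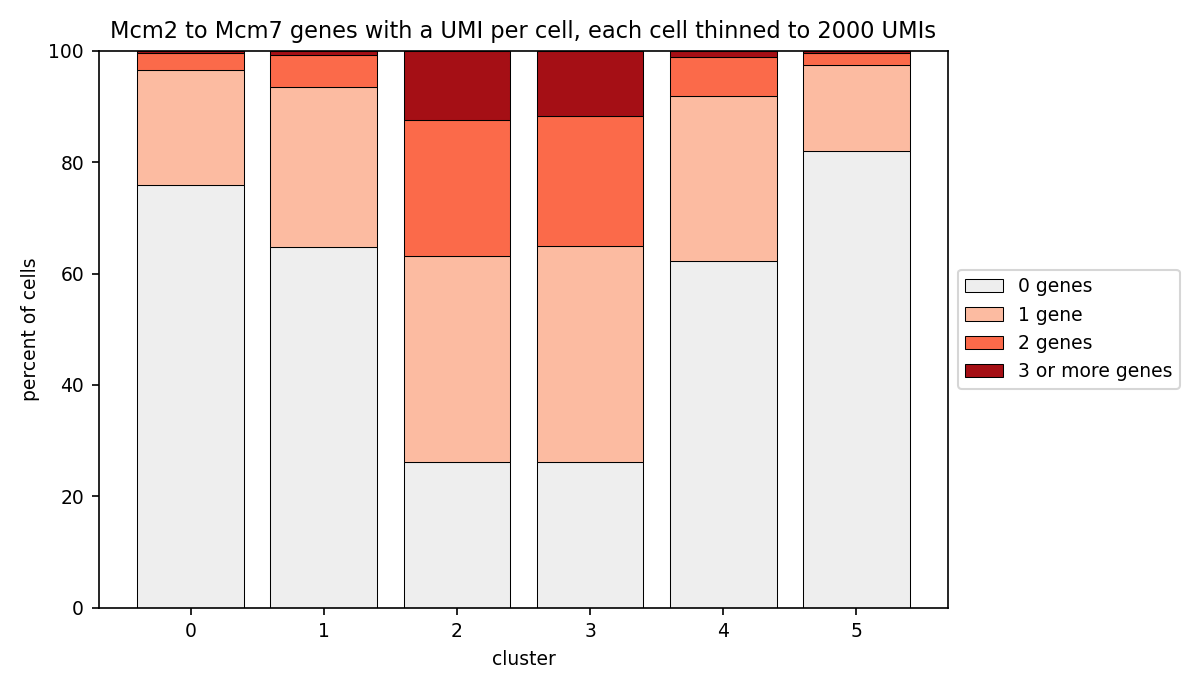
Share of cells (percent, bars sum to 100) in each cluster by how many of the 6 genes Mcm2 to Mcm7 had a UMI, with each cell thinned to 2000 UMIs. Clusters 2 and 3 look alike, with 12.5% and 11.8% of cells at 3 or more genes, and the other 4 clusters had 0.366% to 1.12%.

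Cells of cluster 3 did not fall into a clear order among themselves on these lists. Across its 1910 cells, the Spearman correlation of thinned UMI counts was 0.0913 between the licensing and replication fork lists, 0.0579 between licensing and late cycle genes (late S, G2 and mitosis together) and 0.155 between histone and late cycle genes. These points share 1 library and a fixed depth, and at a median of 2 licensing UMIs per thinned cell such values carry little. The 448 cells with an Ung or Dtl UMI had 1234 licensing UPM, against 1125 in the 1462 cells without one, a ratio of 1.10 (1.02 to 1.17). In cluster 2 the same split gave 1548 against 1202, a ratio of 1.29 (1.21 to 1.37), with late S and G2 genes at 4994 against 6416 (0.778). In cluster 3 that second ratio was 1.02 (0.971 to 1.08).

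Compared with cluster 0, whose cells had the lowest cycling gene levels next to cluster 5, cluster 3 was higher in 127 of 2944 genes (4.31%) and lower in 19 (0.645%). With clusters made anew the counts were 196 and 41, at a minimum of 20 UPM 326 and 71, at 200 UPM 10 and 1, and by mean log values 5 were lower. Ung (10.8 times), the checkpoint mediator Clspn (10.3 times, 73.4 against 7.14), Chaf1b (8.17), Atad2 (7.64), Fam111a (7.50), Hells (7.40), Dtl (6.67) and Uhrf1 (6.27) led. Replication fork genes were higher in 13 of 16 members at the minimum, among them Pcna (118 against 34.4), the sliding clamp, and Lig1 (100 against 21.2), the ligase that joins Okazaki fragments. Nucleotide supply genes were higher in 9 of 12, with Rrm2, the regulated subunit of ribonucleotide reductase, at 150 against 28.2. Of the most abundant members, Tipin, which protects stalled forks, was at 198 against 58.8 and Dut, which removes dUTP, at 213 against 76.5, whereas Top1 (261 against 236) and Nme1 (739 against 717) were nearly flat. Pcna, Lig1, Rrm2 and the genes below that are neither leading, lowest or licensing genes nor the most abundant of their list were picked to describe their lists after their values were seen.

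Lower than in cluster 0 were Apoe, the lipid carrier (90.9 against 223), Dcxr, a carbonyl reductase (36.3 against 83.5), Pnrc1 (33.7 against 74.3), the Myc antagonist Mxd4 (76.9 against 168), Trp53inp1 (42.1 against 82.9), Pdcd4 (30.7 against 54.8), Tob1 (31.2 against 54.6) and the histone demethylase Kdm5b (38.7 against 67.0). Mxd4 was also higher in cluster 3 than in cluster 2 (33.7), by 2.28 times, and was the 1 gene below cluster 0 and above cluster 2. Pdcd4 and Kdm5b shared that order, with 14.5 and 19.3 in cluster 2, but did not reach the minimum level there.

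Compared with cluster 2, 9 of 3029 genes (0.297%) were higher in cluster 3 and 136 (4.49%) were lower. The count of higher genes was 16 with thinned cells, 18 with clusters made anew, 2 by mean log values, 36 at a minimum of 20 UPM and 1 at 200. The 9 were Ung (2.81 times), Mxd4 (2.28), the inositol transporter Slc5a3 (2.06), Dtl (2.01), Thrsp (1.72), Vav3 (1.57), Cdca7 (1.57), Zmynd19 (1.55) and Nxph1, which was not among the 8 highest. Of the lower genes, 25 were in the late S and G2 list, 16 in the mitosis list, 7 in the replication fork list, 6 in the nucleotide supply list and 6 in the list of replication-dependent histones, and a gene can be in more than 1 list. Mki67, the proliferation marker, was at 44.1 in cluster 3 and 352 in cluster 2, Kif11, a spindle motor, at 12.4 and 83.9, and Aurkb, a mitotic kinase, at 13.7 and 92.7.

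Ung, Dtl, Cdca7 and Zmynd19 were the 4 genes higher than in both cluster 0 and cluster 2. The same 4 were the genes highest in cluster 3 among all 6 clusters by 1.5 times over the next, of 2811 genes at the minimum in cluster 3. Next in that ratio came Ptrh2 (1.45), Casp8ap2 (1.38), Cd3eap (1.35), Hells (1.31) and Ciapin1 (1.27). A further 33 genes stood between the contrasts, higher than in cluster 0 and lower than in cluster 2, and 2 were lower than in both, Trp53inp1 and Dcxr.

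**Figure D3:**
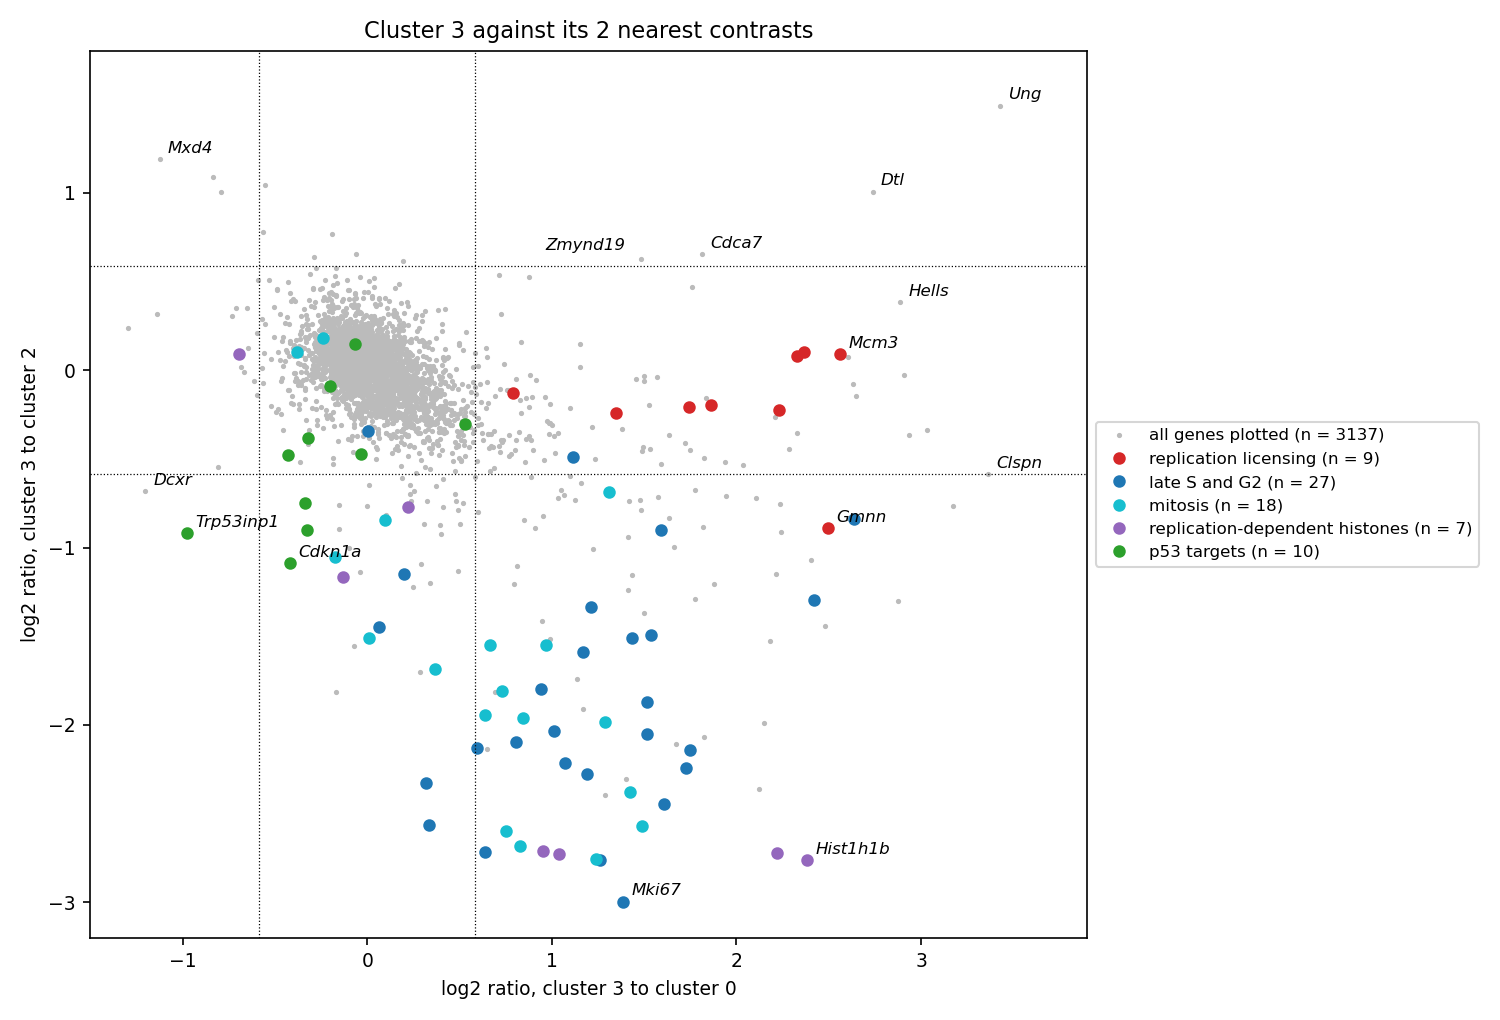
Each point is 1 of 3137 genes at 50 UPM or more in cluster 0, 2 or 3, placed by the log2 ratio of cluster 3 to cluster 0 (horizontal) and to cluster 2 (vertical), with colours for 5 gene lists and dotted lines at 1.5 times. Ung and Dtl lie at the upper right, Mcm genes near 0 on the vertical axis, histone and late cycle genes at the lower right, and p53 targets mostly at the lower left of the centre.

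Replication-dependent histone mRNAs, which cells make while DNA is being copied, were far lower in cluster 3 than in cluster 2. Against the remaining clusters their sum was not low, with 478 UPM in cluster 1, 475 in cluster 4 and 291 in cluster 5. Their list summed to 392 UPM in cluster 3 and 392 in cluster 0, but 1194 in cluster 2, so cluster 3 had 0.328 (0.316 to 0.341) of the cluster 2 level and 1.00 (0.957 to 1.04) times that of cluster 0. Linker histone Hist1h1b was at 24.1 in cluster 3, 164 in cluster 2 and 4.63 in cluster 0. Hist1h2ap was at 32.3, 213 and 6.95, Hist1h2ae at 18.1, 119 and 8.80, and Hist1h1e at 15.1, 99.0 and 7.80. Unlike these, Hist1h2bc had its lowest levels in clusters 2, 5 and 3 (112, 117 and 120) and 194 in cluster 0. Many of these mRNAs lack a poly(A) tail and are near-copies of each other, so a poly(A)-primed 3′ library counts them incompletely and can split their reads. Member by member, 37 histone genes had a ratio above 1 to cluster 0 and 18 a ratio below 1, so the equal sums hide members that differ in both directions.

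Genes of the later cycle were also lower in cluster 3 than in cluster 2. Against all other cells, 18 of 21 late S and G2 genes at the minimum and 14 of 16 mitosis genes were lower by 1.5 times and 0 were higher, where 2.28% of all genes were lower. The 10 lowest genes by the ratio to all other cells included the kinetochore proteins Cenpf (34.4 against 245, ratio 0.141) and Cenpe (0.164). Aspm (0.142), Hmmr (0.148) and Nusap1 (0.198) of the spindle were also among them. So were Ube2c (0.200) and Cdc20 (0.215), which act with the ligase that triggers anaphase. The others were Mki67 (0.201), cyclin B1 (Ccnb1, 0.213) and Kif11 (0.215). Set against cluster 0 the picture turned, with ratios above 1 for all 10 and up to 2.61 (Mki67). Hmgb2, the most abundant of the late S and G2 list, was at 411 in cluster 3 and 828 in all other cells. The late S and G2 list was at 2015 UPM in cluster 3, 6307 in cluster 2, 10295 in cluster 4 and 912 in cluster 0.

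Other groups of the G1 to S programme lay between clusters 0 and 2. Replication fork genes had a ratio of 2.37 to cluster 0 and 0.752 to cluster 2, G1 to S regulators 3.14 and 0.737, nucleotide supply 1.53 and 0.736, histone supply and chromatin assembly 2.58 and 0.696, and DNA repair and checkpoint genes 3.92 and 0.840. Cyclin E2 (Ccne2) was at 46.1 in cluster 3 and 48.3 in cluster 2, and E2f1 at 27.1 and 29.0. Cyclin A2 (Ccna2), which comes with S phase and G2, was at 26.2 in cluster 3 against 109 in cluster 2 and 191 in cluster 4. Exo1, a repair exonuclease, was at 38.5 and 37.6, and Msh6, a mismatch repair subunit, at 40.4 and 34.5. Usp1 (118 and 167) and Tfdp1 (95.2 and 125), the most abundant regulators of that list, were lower than in cluster 2, as was Pclaf, the clamp-associated factor (283 and 696). Ccne2, E2f1, Exo1 and Msh6 were thus near the level of cluster 2, and Ccna2 and Pclaf below it.

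**Figure D4:**
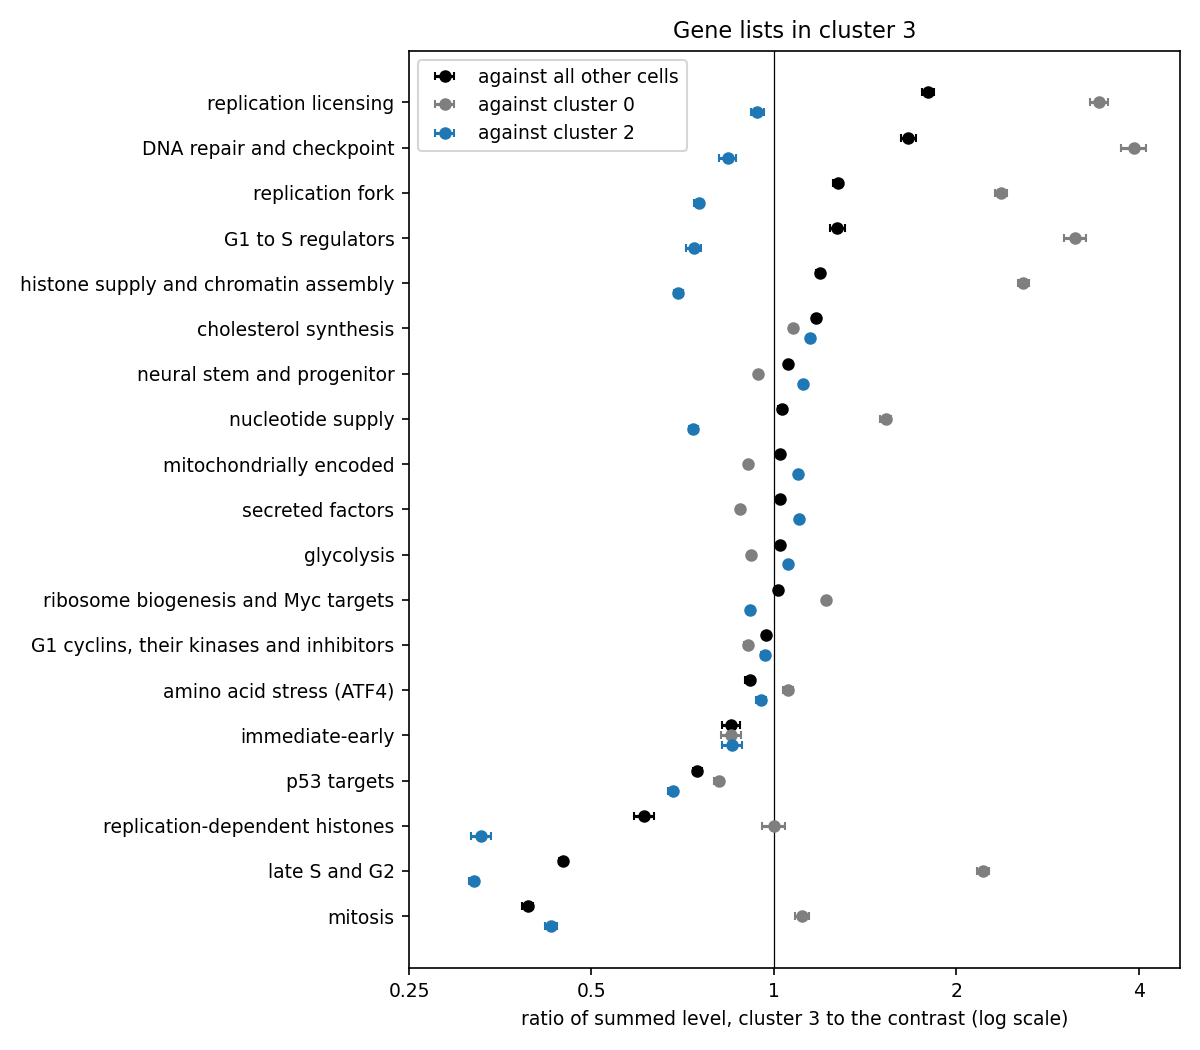
Ratio of the summed level of 19 gene lists in cluster 3 to that in all other cells (black), cluster 0 (grey) and cluster 2 (blue), on a log axis, with 95% exact intervals for counting error that are often narrower than the point. Replication lists lie right of 1 against cluster 0 and left of 1 against cluster 2, licensing is nearest to cluster 2 among them, and the p53 target list lies left of 1 in all 3 contrasts.

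Target genes of the tumour suppressor p53, a transcription factor that arrests damaged or stressed cells, had their lowest summed level of all 6 clusters in cluster 3. The list of 20 genes came to 1947 UPM in cluster 3 and 2333 to 2919 in the other clusters, a ratio of 0.747 (0.735 to 0.760) to all other cells, 0.810 (0.795 to 0.826) to cluster 0 and 0.681 (0.668 to 0.693) to cluster 2. A ratio below 1 to all other cells was seen in 17 of 20 members. Of 10 members at the minimum level, 3 were lower by 1.5 times, where 2.28% of all genes were, and their median log2 ratio was -0.46. Cdkn1a (p21), the kinase inhibitor that p53 induces, was at 438 in cluster 3, 585 in cluster 0, 473 in cluster 1, 930 in cluster 2, 860 in cluster 4 and 653 in cluster 5. Its lowest value was in cluster 3, with cluster 1 next. Bax, which promotes apoptosis and is the most abundant of the list, was at 742 in cluster 3 and 851 in all other cells.

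Phlda3, a p53-induced repressor of Akt, was at 125 in cluster 3 and 157 to 234 in the other clusters. Trp53inp1, which p53 induces under stress, was at 42.1 and 59.9 to 84.3. Ccng1 (131 against 193 in all other cells), Mdm2, the ligase that degrades p53 (55.2 against 77.8), Sesn2 (15.7 against 34.4) and Bbc3 (10.3 against 20.0) went the same way. Exceptions were Plk2 (94.1 against 86.7), Tigar (11.4 against 7.12) and p53 itself, whose mRNA (Trp53) was at 79.4 in cluster 3, 77.2 in all other cells and 54.9 in cluster 0. Of 2826 genes at the minimum in the other cells, the 5 with the lowest ratio to the next lowest cluster were Dcxr (0.623), Tob1 (0.684), Trp53inp1 (0.703), Phlda3 (0.799) and Zmat3 (0.799), of which the last 3 are in the p53 list. Of 11 G1 cyclins, their kinases and inhibitors at the minimum, 3 were lower than in all other cells by 1.5 times, where 2.28% of all genes were. These 3 were inhibitors (Cdkn1a, Cdkn2c and Cdkn2d). They were also lower than in cluster 2 by 1.5 times, but none of them was so against cluster 0. Cyclin D1 (Ccnd1) was at 1630 in cluster 3 against 1484 in all other cells.

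**Figure D5:**
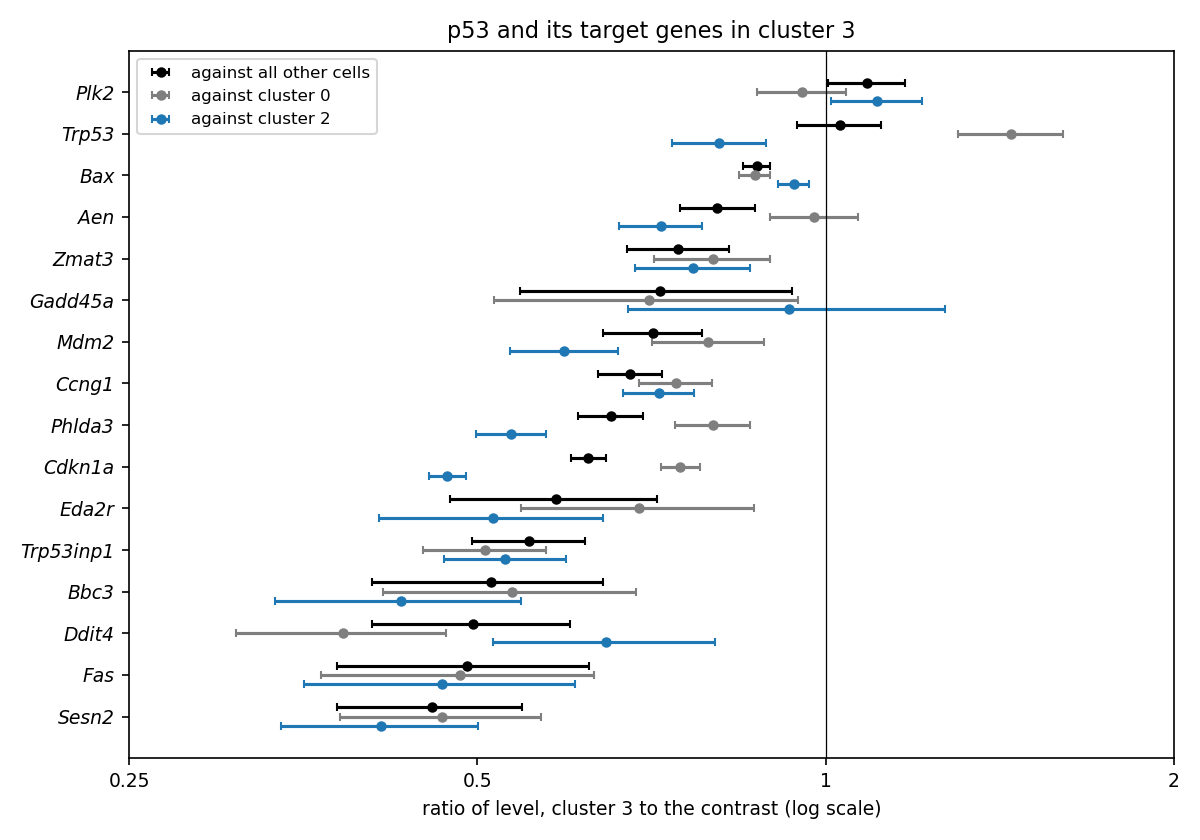
Ratio of the level in cluster 3 to all other cells (black), cluster 0 (grey) and cluster 2 (blue) for the 16 of 20 p53 list genes with at least 10 UPM in the other cells, on a log axis, with 95% exact intervals for counting error. Points lie left of 1 in all 3 contrasts for 14 genes, and Trp53 and Plk2 do not.

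Few identity genes passed 1.5 times in any of the 3 contrasts, and few of all genes did. Over all genes 1.12% were higher and 2.28% lower than in all other cells. Against cluster 0 the shares were 4.31% and 0.645%, and against cluster 2 they were 0.297% and 4.49%. Counts of 0 in lists of this size are near those shares and say little about the lists. Of 21 neural stem and progenitor genes at the minimum, 0 were higher or lower than in all other cells by 1.5 times, and Fabp7 (4882 against 4572), Vim (1859 against 1755), Nes (709 against 673) and Sox2 (156 against 170) were near the level of the other cells. Against cluster 0 the count was 0 of 21 as well, and against cluster 2 it was 1 of 21, Thrsp (244 against 142). Secreted factors, the subject of the study's title, gave 0 of 20 past 1.5 times against all other cells, with the growth factor Ptn at 2882 in cluster 3 and 2766 in the other cells and the binding protein Igfbp2 at 2166 and 2117. Against cluster 2 it was again 0 of 20, and against cluster 0, 2 of 22 were lower, Apoe (90.9 against 223) and Timp3 (38.1 against 57.7), an inhibitor of metalloproteinases. Cholesterol synthesis genes were slightly higher in 22 of 24 members (sum 4135 against 3527, ratio 1.17), none by 1.5 times, with Hmgcs1 at 565 against 512 and Fdps at 563 against 469. Ribosome biogenesis genes had a ratio of 1.02 to all other cells and 1.22 to cluster 0, and glycolysis and mitochondrially encoded genes had 1.02 and 1.02 to all other cells.

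Sums over markers of other cell types lay within or near the range of the other clusters. Neuron markers summed to 327 UPM in cluster 3 (274 to 358 in the other clusters), astrocyte markers to 589 (410 to 774), oligodendrocyte lineage markers to 94.8 (73.1 to 103), microglia markers to 17.7 (14.9 to 17.2) and endothelial, mural and fibroblast markers to 3.96 (4.52 to 7.00). Of these lists 11 of 15, 11 of 12, 7 of 12, 2 of 12 and 6 of 15 genes were in the deposited table. Only 1 neuron gene and 3 astrocyte genes reached the minimum against all other cells, so a few genes carry these sums. Astrocyte markers had a ratio of 0.761 to cluster 0, where their sum was highest.

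Sex-linked transcripts allowed a partial split by culture, since Xist marks cells of the 2 female cultures and Y-linked genes those of the male culture. In cluster 3, 65.5% of cells had an Xist UMI and no Y-linked UMI, 10.4% the reverse and 1.94% both, against 54.9%, 14.3% and 2.12% of all other cells. Among the 1251 Xist cells of cluster 3 the licensing list had a ratio of 1.78 (1.73 to 1.83) to the Xist cells of the other clusters, and among the 198 Y cells it was 1.77 (1.65 to 1.90). Of the 20 leading genes, 20 were past 1.5 times in the Xist cells and 18 in the Y cells, and the 10 lowest genes were past it in both. These genes were picked by their ratio over all cells, these cells included, so the counts were largely fixed in advance and support nothing. The p53 list had 0.709 (0.695 to 0.723) in Xist cells and 0.760 (0.718 to 0.804) in Y cells. What part the mix of cultures had in the clusters was not tested, and the 2 female cultures cannot be told apart.

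The bulk libraries give the only replicated values, and there the question is whether the leading genes of cluster 3 differ between cultures and tissue. They held 9917697 to 11747408 counts in the cultures and 16676618 and 17351636 in the whole dentate gyri. Cultures were prepared with a SMART-Seq kit and tissue with a NEBNext directional kit, so kit and group cannot be told apart, and in bulk fewer cells of a type and less RNA per cell cannot be told apart either. The background is wide: of 18088 genes tested (edgeR quasi-likelihood, Benjamini-Hochberg adjusted p below 0.05), 6440 (35.6%) were higher in cultures and 7536 (41.7%) lower, so a single call says little. Of the 20 leading genes 19 were higher and 1 lower, with a median log2 difference of 4.18 against -0.13 over all genes tested. Of the 17 licensing genes 15 were higher, 1 was lower and Orc4 missed the threshold. The late S and G2 and mitosis lists, low in cluster 3 against all other cells, rose too. Of the first 29 of 29 genes were higher (median log2 difference 5.30), and of the second 33 of 34 (5.63). The rise in cultures is thus not particular to genes that are high in cluster 3.

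Cdc6 rose most among the licensing genes. Its CPM, counts scaled to 1000000 per library, were 54.0, 46.3, 43.6 and 57.4 in cultures F1, F2, M1 and M2. In the 2 tissues they were 0.0646 and 0.0608, from 1 count each. The log2 difference (cultures minus tissue) was 9.44 ± 0.34, adjusted p = 1.93e-07 by edgeR. Here and below, ± is the difference divided by the square root of the test's F value, a stand-in for a standard error. At so few counts the fitted difference depends on the prior count, and ± 0.34 is too small to cover counting error in the tissues. Mcm3 had 285, 415, 217 and 277 in cultures and 4.91 and 4.32 in tissue (log2 difference 6.01 ± 0.34, adjusted p = 1.39e-06). Dtl had 102, 125, 93.3 and 75.3 against 0.581 and 1.70 (6.41 ± 0.42, adjusted p = 3.25e-06). In all 3 genes the 4 culture values lay above both tissue values.

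Ung, first in cluster 3, was among the smaller differences in bulk. It had 10.9, 8.84, 9.65 and 11.9 CPM in the cultures and 1.16 and 2.13 in tissue, a log2 difference of 2.64 ± 0.33 (adjusted p = 0.000138). Casp8ap2 had 32.3, 39.5, 32.8 and 33.2 against 21.9 and 22.7 (0.63 ± 0.16, adjusted p = 0.00619), a call that missed the threshold without the female tissue library (adjusted p = 0.0570). The leading gene that fell was Zmynd19, with 4.13, 1.65, 2.39 and 2.54 in cultures and 44.3 and 38.9 in tissue (log2 difference -3.95 ± 0.30, adjusted p = 7.37e-06).

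Among the licensing genes, the one that fell was Mcmbp, with 18.8, 15.1, 16.6 and 13.9 against 37.8 and 34.6 (log2 difference -1.17 ± 0.17, adjusted p = 0.000342). The origin subunits Orc3 (0.47 ± 0.18, adjusted p = 0.0400) and Orc4 (0.37 ± 0.17, adjusted p = 0.0725) had the smallest differences. Orc3 lost its call without culture F1 (adjusted p = 0.0713), without culture F2 (0.0652), without the female tissue (0.0792) and without the male tissue (0.228). Orc4 gained one without culture M2 (adjusted p = 0.0200). Geminin rose by 4.65 ± 0.29 (adjusted p = 2.47e-06). Among the 33 leading and licensing genes, 12 overlap another annotated gene, Mcm7, Orc6 and Mcmbp among them, and no source used here says whether the counting used strand, so their counts may hold reads of a neighbour. The p53 list, low in cluster 3 among cultured cells, was higher in cultures than in tissue in 14 of 20 genes and lower in 3. Of all genes 35.6% were higher and 41.7% lower. Kit and group coincide here as well, so this count was not read as a result about p53.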

How the data were processed

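The single-cell file held natural log values, ln(1 + UMIs per 10000), deposited with the authors' cluster number in each cell's name. Per the labels' protocols, Cell Ranger 3.0.2 and Seurat 3.0.1 made it, whereas the submitters' processing notes name version 3.1.0 of each. The deposited natural log values were turned back into whole UMI counts, which worked for all 14912 cells within 0.01. UMIs were summed per cluster, and levels per 1000000 were compared with exact 95% Poisson, conditional or Clopper-Pearson intervals. There was no test, since 1 library pooled 3 cultures. Genes needed 50 UMIs per 1000000 on the higher side. Bulk values were raw counts per gene, deposited by the authors and, per the submitters' processing notes, made with HISAT2 2.0.6 and featureCounts. Those notes name the build GRCh38, although the symbols are those of mouse. Counts were tested with edgeR 4.0.16 (quasi-likelihood, TMM, default filter on low counts, Benjamini-Hochberg over all genes, threshold 0.05), which on simulated 4-fold changes recovered 99.5% with 11 false calls among 17348 genes. Nothing says that libraries of a group are independent beyond their separate cultures or animals, so p-values measure the spread between these libraries. Own clusters were made with scanpy 1.11.5 (2000 variable genes, 30 components, 15 neighbours, leiden resolution 0.5). Gene positions came from GENCODE M21.

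Genes were picked by a rule: the 5 given markers, the 20 highest and 10 lowest against all other cells, the 8 highest and 8 lowest against clusters 0 and 2, all licensing genes, and the 2 most abundant genes of each other list, with additions said to be such. Not every gene so picked is described in the text. The members, lists and rule were chosen with earlier results of these data known. Alternatives were other minimum levels, thinning, mean log values, own clusters, equal weights, cells by sex-linked RNA, other scalings, filters and tests, a replicate block, and each library left out. 0 columns of other samples were present.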

Additional observations from a re-analysis of the deposited data

Results flagged for a closer look

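Among 33 leading and licensing genes, 1 had a culture library that stood apart from the other 3. Casp8ap2 had 39.5 CPM in culture F2, against 32.3 to 33.2 in the other cultures. The gap was 0.882 of the range, over Dixon's 95% limit for 4 values. Chance alone passes that limit in about 1 of 20 groups.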

How the results depend on the processing

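The single-cell counts follow the minimum level. At 20 UPM, 71 genes were higher and 139 lower than in all other cells, 326 and 71 against cluster 0, and 36 and 291 against cluster 2. At 200 they were 0 and 13, 10 and 1, and 1 and 27. Mean log values gave 18 higher and 32 lower against all other cells, 5 lower than cluster 0 and 2 higher than cluster 2. Thinning gave 16 higher than cluster 2, and own clusters gave 196 higher and 41 lower than cluster 0 and 18 higher than cluster 2. The licensing sum had log2 ratios of 0.84, 1.78 and -0.09 to all other cells, cluster 0 and cluster 2. They were 0.92 to all other cells when thinned, 1.05, 2.00 and -0.16 by mean log values, 1.02, 1.86 and 0.13 with own clusters, and 1.02 to all other cells with clusters weighted equally. Its sign against cluster 2 therefore depends on the clustering, as did that of Clspn (log2 0.0091 with own clusters). For single genes, 1154 of 1586 single-cell values moved by less than their counting interval, 431 by more, and 1 turned. The causes were not tested.

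In bulk, leaving out 1 library gave 18 to 19 leading genes higher and 1 lower, and 14 to 16 licensing genes higher and 1 lower. A test for more than 2-fold gave 18 and 14 higher, and 0 licensing genes lower. With a replicate block, 19 and 15 were higher and 1 of each lower. F1 and M2 are the names shared by cultures and tissue, and deviations of same-named libraries correlated at 0.0416 and 0.0543, so the names were not taken as pairs. Orc3 also missed the threshold with DESeq2 size factors (adjusted p = 0.0888) and with DESeq2 (0.0947). All other bulk genes named kept their call in each setting run, apart from Orc3, Orc4, Casp8ap2 and, for more than 2-fold, Mcmbp. Cells of 1 pooled library give no spread between cultures, and at a median of 4127 UMIs a cell an absent UMI does not show an absent mRNA.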

Other observations

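Clustering the cells anew gave 7 clusters, and cluster 3 was less compact in them than its number implies. Of its 1910 cells, 1116 (58.4%) fell in 1 new cluster, 78.4% of whose 1424 cells came from cluster 3. A further 16.6% fell in the new cluster that took most of clusters 0 and 5, 11.4% in that of cluster 1, 8.01% in a smaller one with cells of cluster 0, and 105 cells in that of cluster 2. Immediate-early genes, which respond to growth factors within minutes to hours, summed to 470 UPM in cluster 3 and 524 to 583 in the other clusters. Their ratio to all other cells was 0.850 (0.821 to 0.879). None of 4 genes at the minimum passed 1.5 times, where 1.12% of all genes were higher and 2.28% lower. Genes of the amino acid stress response summed to 1996 UPM in cluster 3 and 3723 in cluster 5, their highest. The rare transcription factor Myb was at 7.43 in cluster 3, 4.26 in cluster 2 and 0.656 to 1.06 in the others, under the minimum level throughout.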
